A study of Mus musculus with 3 samples.

Results

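The testis-specific serine kinases are encoded in the mouse by Tssk1, Tssk2, Tssk3, Tssk4, Tssk5 and Tssk6, 6 of the 21755 protein-coding genes annotated on chromosomes 1 to 19 and X in GENCODE vM21 (mm10). The genes were chosen by name. For each, the narrow H3K4me3 peaks with a centre within 1 kb of any annotated transcript start were taken from the deposited list, together with the broad peak over the start, and genes without a peak were kept. H3K4me3 had been measured by ChIP-seq in whole testes of 23-week-old adult (C57BL/6J x CAST/Eij)F1 males with 1 humanised and 1 CAST allele of Prdm9, the gene whose product places H3K4me3 at recombination hotspots. The libraries, 2 from ChIP (replicates 1 and 2) and 1 from input, are all of that genotype, so no treated or wild-type group stands beside them. The humanised allele carries the zinc fingers of the human protein and is shared by each library. The sources differ on whether the replicates were testes of littermates or both testes of a single male, so the spread between the replicates may be technical.

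TSSK proteins are small serine/threonine kinases related to the AMPK branch of the kinome. They are made in spermatids, the haploid cells that reshape into sperm, and in mice the loss of several of them disturbs sperm formation or male fertility. TSSK1 and TSSK2 bind and phosphorylate TSKS, and TSSK6 is activated with the help of the co-chaperone TSACC. H3K4me3 is a histone mark of active promoters, usually centred just downstream of the start on the first nucleosomes, and in testis it is also placed away from promoters by PRDM9. The mark was measured here, not the RNA or the protein. In whole testis, fewer cells that carry the mark and less mark per cell cannot be told apart.

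Each Tssk gene lay inside an H3K4me3 domain, of at least 6 kb at all but Tssk5. On the GENCODE annotation the marked stretch covered the whole gene from start to end. On the RefSeq annotation 5 of the 6 genes were covered whole, and the exception was Tssk4, for which predicted RefSeq models start further upstream. A broad peak lay over a start of 6 of 6 Tssk genes, against 76.5% of all protein-coding genes, and each of these peaks overlapped a PRDM9-independent region, that is, a stretch marked in mice with other Prdm9 alleles too, which held for 72.1% of protein-coding genes. The widths were 14.2 kb at Tssk1 and Tssk2, which share 1 domain, 8.1 kb at Tssk3, 7.7 kb at Tssk4, 4.5 kb at Tssk5 and 6.5 kb at Tssk6. Their median of 7900 bp compares with 3400 bp (interquartile range 2200 to 5300) over the 16634 protein-coding genes with a broad peak. A narrow centre within 1 kb of a start was present at 4 of 6 Tssk genes, against 77.4% of protein-coding genes, and the 4 had a median of 767 scaled fragments, against 738 (228 to 1470) over the 16844 genes with such a centre.

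The stretches just upstream of the starts are shown because each lies inside a broad peak while 0 narrow centres fall in any of them. All are written 5' to 3' along the strand of the Tssk gene, with mm10 coordinates, and the letters are those of RefSeq's table for GRCm38.p6, except Tssk3, read from the mm10 genome. Capitals mark, in Tssk1 and Tssk2, the longest run of bases that the upstream windows of these genes share, and in Tssk4 and Tssk6 the matches to the motifs named below. Tssk1 is chr16:17894100-17894202, Tssk2 chr16:17898387-17898636, Tssk3 chr4:129491117-129491189 (the stretch before the start of the divergent neighbour Fam229a that neither GENCODE nor RefSeq gives to an exon, with no motif match), Tssk4 chr14:55649934-55650183 and Tssk6 chr8:69902095-69902124. The Tssk1 stretch is shortened and the Tssk6 stretch cut to 30 bases because the windows overlap untranslated exons of coding transcripts of Dgcr2 and Ndufa13. Exons of a noncoding Dgcr2 transcript on the opposite strand still overlap 46 bases of the Tssk1 stretch and 110 bases of the Tssk2 stretch. An exon of Ndufa13, also on the opposite strand, still overlaps all 30 bases of the Tssk6 stretch. Tssk5 was not matched in that table.
Tssk1: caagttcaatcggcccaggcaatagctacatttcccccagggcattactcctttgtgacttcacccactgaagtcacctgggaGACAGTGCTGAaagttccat
Tssk2: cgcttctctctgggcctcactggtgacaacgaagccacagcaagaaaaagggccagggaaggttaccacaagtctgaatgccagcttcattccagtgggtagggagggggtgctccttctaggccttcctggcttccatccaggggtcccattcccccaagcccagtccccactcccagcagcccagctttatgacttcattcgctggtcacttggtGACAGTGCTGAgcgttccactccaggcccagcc
Tssk3: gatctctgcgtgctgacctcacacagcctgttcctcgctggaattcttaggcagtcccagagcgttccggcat
Tssk4: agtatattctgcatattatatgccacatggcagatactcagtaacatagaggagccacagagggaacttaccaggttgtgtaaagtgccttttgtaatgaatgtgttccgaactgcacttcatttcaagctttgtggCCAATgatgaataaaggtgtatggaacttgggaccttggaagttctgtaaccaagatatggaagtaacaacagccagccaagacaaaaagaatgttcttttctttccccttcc
Tssk6: CCGCCCcaaggccgagTGACGcccgcagtc

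The upstream windows differed in base composition. Over the 250 bases before the RefSeq start, the ratio of observed to expected CpG was 0.0965 at Tssk4, 0.140 at Tssk1, 0.188 at Tssk2, 0.413 at Tssk3 and 0.603 at Tssk6. The median over 32848 promoters was 0.374, with an interquartile range of 0.167 to 0.723. Tssk1 and Tssk4 thus lay below that range, and Tssk4 had a single CpG in 250 bases, against 13 in Tssk6. The start that the RefSeq table uses for Tssk3 lies 252 bp inside the GENCODE gene, so that window is part of the first exon in GENCODE, and a predicted RefSeq model starts 708 bp upstream of GENCODE. In the 73 bases printed for Tssk3 the ratio was 0.676, with 4 CpG.

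The motifs searched on both strands were the cyclic AMP response element TGACGTCA, its core TGACG (which the former contains), the TATA box TATAAA, the GC box GGGCGG and the CCAAT box CCAAT. TGACGTCA was found in 0 of the 5 windows and in 1.55% of 32851 promoters, and TATAAA in 0 of 5 and in 12.4%. TGACG was found at Tssk6 alone, 73 bases before the start, against 17.8% of promoters. GGGCGG was also found at Tssk6 alone, once on each strand, 109 and 89 bases before the start, against 32.7%. CCAAT was found at Tssk4, 113 bases before the start, and on the other strand at Tssk3, 41 bases before the table's start, against 33.8%. Tssk1 and Tssk2 held none of these letters in their windows. They shared the 11 bases GACAGTGCTGA on the same strand, beginning 20 bases before the RefSeq start of Tssk1 and 33 before that of Tssk2, the longest run shared by any pair of the 5 windows. Other pairs shared at most 10 bases. A match is a description of the letters only.

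**Figure D1:**
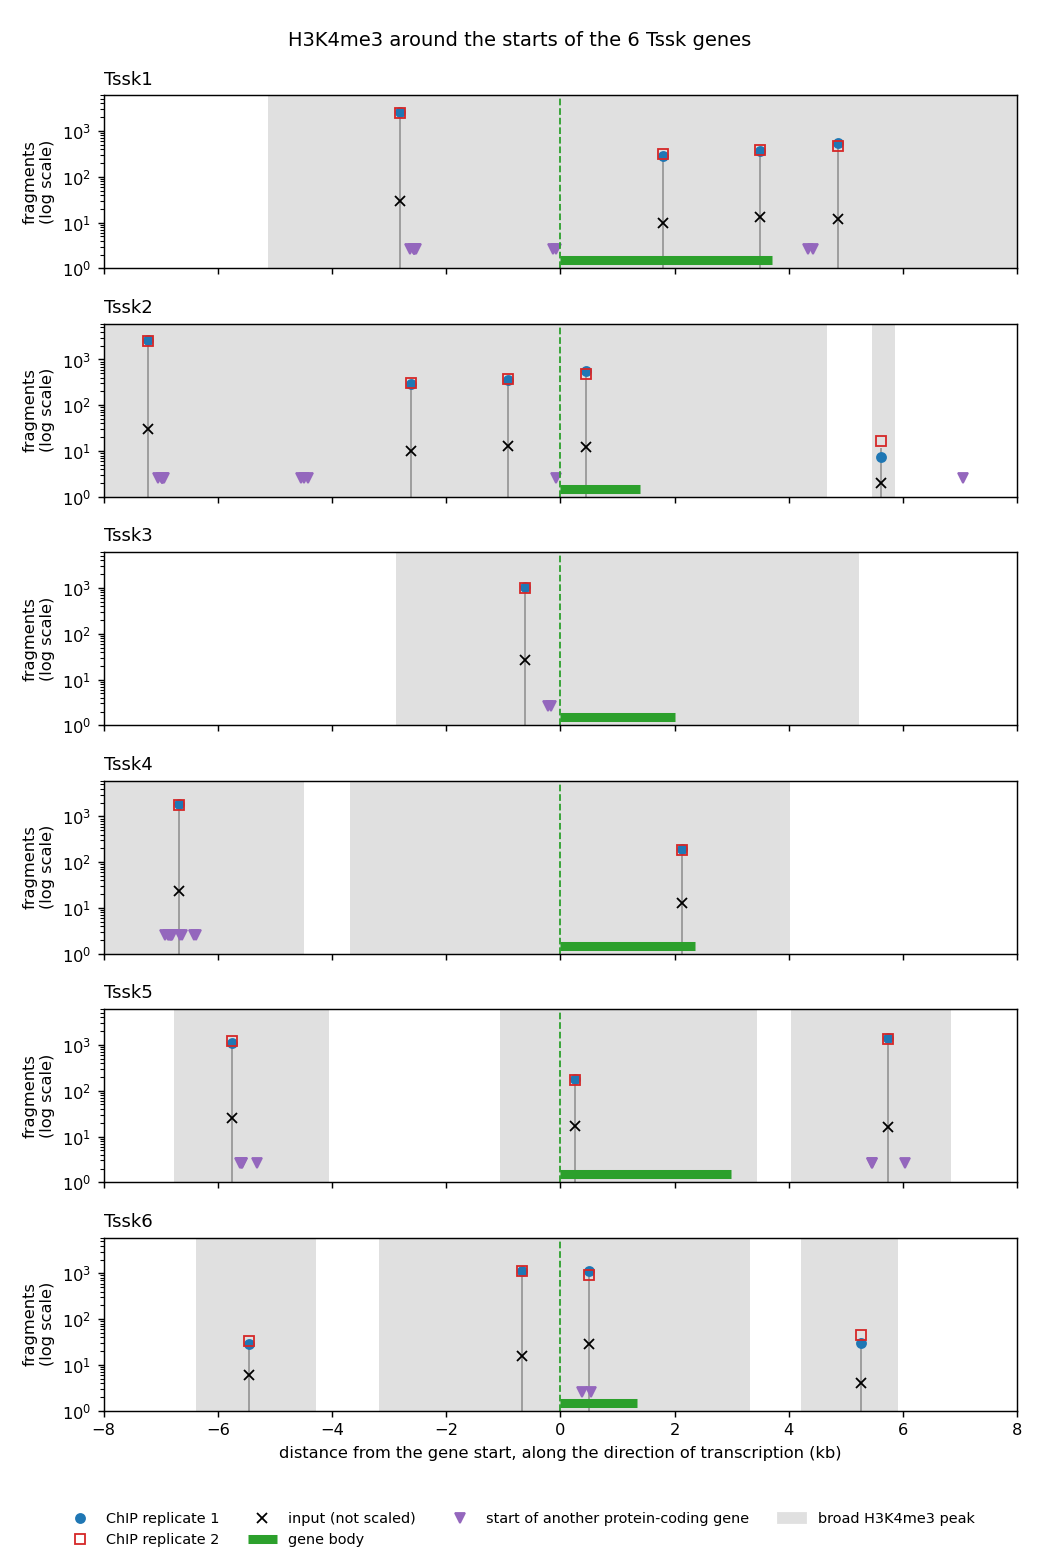
H3K4me3 within 8 kb of the start of each Tssk gene, along its direction of transcription (x axis, kb). Points give fragments over each narrow peak centre on a log scale, with both ChIP replicates scaled to equal totals and the input unscaled, grey shading marks broad peaks, the green bar the gene and triangles the starts of other protein-coding genes. The shading spans each whole green bar, and no centre lies within 1 kb of the starts of Tssk1 and Tssk4.

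Tssk1 and Tssk2 are adjacent on chromosome 16 and are transcribed in the same direction. Both are single-exon genes. Tssk1 (ENSMUSG00000041566.3) spans chr16:17894223-17897922 and Tssk2 (ENSMUSG00000045521.7) chr16:17898637-17900024, both on the plus strand. A broad peak of 14200 bp, chr16:17889101-17903300, covers both, and 97.9% of it lies in a PRDM9-independent region. Its width was at percentile 97.8 of protein-coding genes with a broad peak. It also holds the starts of Dgcr2, an adhesion receptor gene on the minus strand, and of Gm20518, so the width is not that of Tssk chromatin alone. GENCODE further places Dgcr2 transcript starts 78 bp from the start of Tssk1 and 75 bp from that of Tssk2, on the opposite strand.

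The domain held 4 narrow centres of unequal height. The centre at position 17891420, 173 bp downstream of a Dgcr2 start and 2803 bp upstream of Tssk1, had 2545 fragments in replicate 1 and 2587 in replicate 2, over 30 in the input. The centre in the coding exon of Tssk2 at 17899090, 453 bp downstream of its start, had 532 and 491 fragments over 12 in the input. After the replicates were scaled to equal totals it had 513 ± 58.1 fragments (SD, n = 2), 20.0% of the height at Dgcr2.

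Both remaining centres lay between the starts of Tssk1 and Tssk2. That at 17896027 had 274 and 320 fragments over 10, and that at 17897709, which is 928 bp upstream of Tssk2, had 344 and 395 over 13. They reached 11.5% and 14.4% of the Dgcr2 centre. Both lie in the long untranslated part of the single exon that GENCODE gives to Tssk1, whereas the RefSeq gene ends at 17895653, before either. Both also lie in an intron of Dgcr2, and that at 17897709 is 853 bp downstream of a Dgcr2 start. The centre at 17896027, 1804 bp downstream of the Tssk1 start, was the nearest to Tssk1, so Tssk1 had no narrow peak by the 1 kb rule. A broad peak over a start without a centre within 1 kb was found at 2 of 6 Tssk genes (Tssk1 and Tssk4), against 1.41% of protein-coding genes, all by GENCODE starts.

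Tssk4 stood alone in its domain. The gene (ENSMUSG00000007591.15, chr14:55650184-55652539, plus strand) has 7 annotated transcripts of 3 to 4 exons whose starts lie close together. Its broad peak, chr14:55646501-55654200, is 7700 bp wide (percentile 88.4), holds 0 starts of other genes and reaches 3683 bp upstream and 4016 bp downstream of the start. The nearest other protein-coding start, that of Tm9sf1, a transmembrane protein gene, is 6378 bp away. The single narrow centre of the domain, at 55652310, lies in a coding exon 2126 bp downstream of the gene start, in a gene 2356 bp long. It had 191 and 193 fragments over 13 in the input, or 192 ± 9.5 scaled fragments (SD, n = 2). On the GENCODE annotation the mark at Tssk4 was thus wide, with a single low centre near the end of the gene. RefSeq adds predicted Tssk4 models that begin at 55643651, 6533 bp upstream and beside the start of Tm9sf1. By these, 2850 bp of the gene lie outside the broad peak, and the centre nearest to the start is that at 55643506, 145 bp upstream, with 1832 and 1801 fragments over 23 in the input, in another broad peak.

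Tssk5 had the narrowest domain of the 6 and the lowest centre of the 4 genes with one. The gene (ENSMUSG00000060794.8) spans chr15:76371952-76374938 on the minus strand, and its longest transcript has 8 exons. The broad peak of 4500 bp, chr15:76371501-76376000 (percentile 66.8), again holds 0 starts of other genes. Its centre at 76374685 lies in an untranslated or noncoding exon of Tssk5, 253 bp downstream of the gene start. By the most upstream RefSeq start, at 76375191, it lies 506 bp downstream. It had 170 and 179 fragments over 17 in the input. That gave 175 ± 3.55 scaled fragments (SD, n = 2). The promoters on either side were higher. The centre at Hgh1 had 1371 and 1370 fragments over 16, and that at Mroh1 1073 and 1297 over 25, both in broad peaks of their own.

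Tssk3 shares its centre with a divergent neighbour. The gene (ENSMUSG00000000411.7) has 2 exons and spans chr4:129489014-129491022 on the minus strand, 168 bp from the nearest start of Fam229a, which is transcribed away from it. The single centre of the domain, at 129491643, lies 621 bp upstream of Tssk3, in an intron of Fam229a and 403 bp downstream of one of its starts. By a predicted RefSeq model of Tssk3, which begins at 129491730, the same centre lies 87 bp downstream of the start, in a first exon of Tssk3. It had 1023 and 1014 fragments over 27 in the input, or 1020 ± 64.3 scaled fragments (SD, n = 2). The broad peak, chr4:129485801-129493900, is 8100 bp wide (percentile 89.6) and reaches further on the Tssk3 side, with 5221 bp downstream of its start against 2878 bp upstream. The share of this centre that belongs to Tssk3 cannot be told apart from that of Fam229a.

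Tssk6 had the highest centre within 1 kb of a Tssk start. It is a single-exon gene (ENSMUSG00000047654.6, chr8:69902184-69903518, plus strand) whose 5' part overlaps, on the opposite strand, the first exon of Ndufa13, a gene of a respiratory complex I subunit, and the start of Yjefn3. Both starts are inside its broad peak, chr8:69899001-69905500, of 6500 bp (percentile 83.1). At least 2 centres within 1 kb of a start were found at 2 of 6 Tssk genes (Tssk2 and Tssk6), against 17.9% of protein-coding genes. The centre at 69901509, 675 bp upstream of Tssk6, had 1059 and 1161 fragments over 16 in the input, or 1110 ± 9.13 scaled (SD, n = 2). It lies in introns of Yjefn3 and Ndufa13. The centre at 69902678, in the coding exon of Tssk6 at 494 bp, had 1080 and 972 over 29, or 1030 ± 135 scaled. The latter is only 34 bp downstream of the Yjefn3 start. Neither value can be given to Tssk6 alone.

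**Figure D2:**
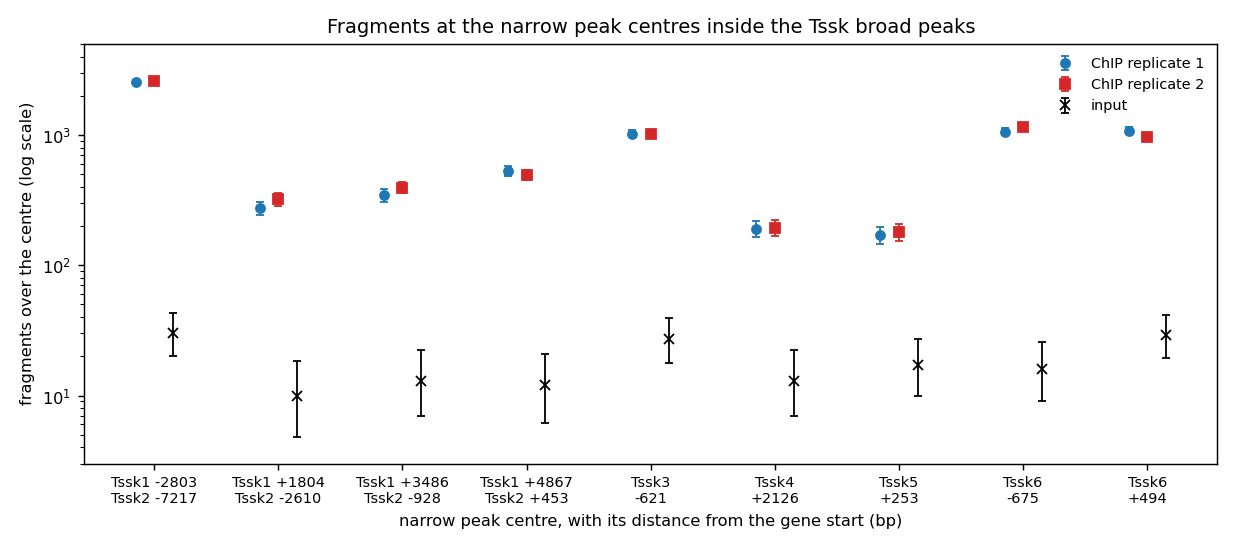
Fragments over each of the 9 narrow centres inside the broad peaks of the Tssk genes (log y axis), in ChIP replicates 1 and 2 and in the input, not scaled, with exact 95% Poisson intervals. The label of each centre gives its distance from the gene start in bp, and the ChIP libraries lie above the input at each centre, with the highest at Dgcr2 (Tssk1 -2803).

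The order of the Tssk genes by their strongest centre within 1 kb was Tssk6, Tssk3, Tssk2 and Tssk5, with Tssk1 and Tssk4 having no value. Coverage here is counted at 1 base, so gene length does not enter. Tssk6 and Tssk3 were not apart. Their ratio was 1.09, and the exact 95% counting intervals of their libraries overlapped, although the ranges of their replicates did not. Tssk3 was 1.99 times Tssk2 and Tssk2 2.94 times Tssk5, and in both cases neither the replicates nor the counting intervals overlapped. With 2 replicates no exact test can pass 0.05, so these orders are descriptions. Intervals cover counting error only.

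Among protein-coding genes with a centre, Tssk6 stood at percentile 63.2 of scaled coverage, Tssk3 at 60.1, Tssk2 at 41.0 and Tssk5 at 21.2. By the deposited enrichment, a ratio over the local background, the percentiles were 75.1, 48.4, 52.4 and 17.4, from values of 65.2, 35.4, 40.0 and 9.53. Tssk2 thus passed Tssk3 on that scale, where its input of 12 fragments compares with 27. Replicate 1 gave 48.0% of the ChIP fragments over all narrow centres. At the 9 centres in the Tssk domains its share ran from 46.1% to 52.6%, and the exact 95% interval held 48.0% at 5 of them.

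By a rule that compared log2 coverage in both replicates and log2 width over 16327 genes, the gene most like Tssk2 was Tulp2 (498 and 514 fragments, 14200 bp wide, distance 0.116), followed by St6galnac2. Gm7356 and Iqcm were nearest to Tssk5, with 162 and 176 and with 160 and 175 fragments. Tssk6 was nearest to Bcl2l12 and Irf3, which share 1 peak of 1044 and 1169 fragments. Fam229a, which has the same peak as Tssk3, was followed by Atp10a at a distance of 0.0537.

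The domains of Tssk2, Tssk3, Tssk5 and Tssk6 were also wider than the median for genes of like coverage. Over 16327 genes, width and coverage had a Spearman correlation of 0.433 (a description across genes, which share libraries and are not replicates). These genes were split by coverage into 4 bins of like size. In the lowest bin the median width was 2000 bp, and Tssk5 had 4500 bp. In the next the median was 3100 bp, and Tssk2 had 14200 bp. In the third it was 3700 bp, and Tssk3 and Tssk6 had 8100 and 6500 bp. The highest bin, with a median of 4500 bp, held 0 Tssk genes. The 14200 bp domain also holds the Dgcr2 centre, whose 2569 scaled fragments would fall in that bin (1488 or more). Its width is thus not that of the Tssk2 centre alone. Tssk1 and Tssk4 had no centre within 1 kb and are in no bin. A broad peak of at least 6 kb lay over the start of 5 of 6 Tssk genes, against 15.2% of protein-coding genes. The exception was Tssk5. Of these 5, Tssk4 alone had no other gene start in its domain.

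Whether a whole gene is covered depends on its length. In GENCODE the Tssk genes are 1335 to 3700 bp long, and the median protein-coding gene is 17410 bp. A single broad peak contained the whole GENCODE gene at 6 of 6 Tssk genes, against 4.81% of protein-coding genes and 26.5% of the 3166 genes up to 4 kb long. Both totals include genes without a broad peak, whereas each Tssk gene has one, and Tssk1 and Tssk2 lie in the same peak.

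**Figure D3:**
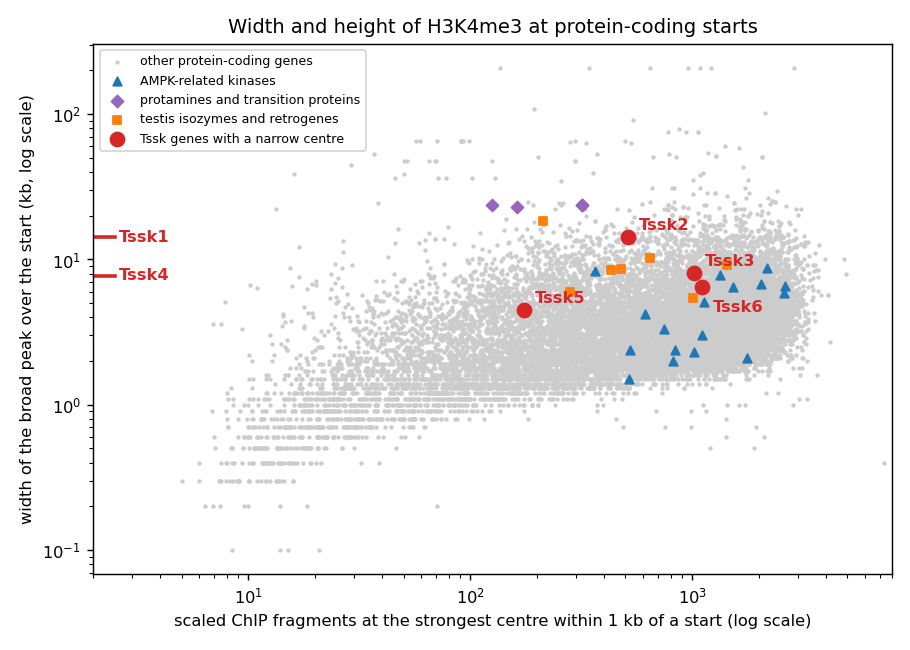
Width of the broad peak over the start (kb, log y axis) against scaled ChIP fragments at the strongest centre within 1 kb (log x axis) for 16327 protein-coding genes in grey, with the Tssk genes in red and 3 gene lists in other colours. Tssk1 (14.2 kb) and Tssk4 (7.7 kb) have no centre within 1 kb and are drawn as ticks at the left edge, and Tssk2, Tssk3, Tssk5 and Tssk6 lie above the median width of genes of like coverage.

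The genes of the partners and substrates of the TSSK proteins had, by median, higher centres than the kinase genes. All 9 genes of this list had a narrow centre within 1 kb and a broad peak over the start, and their median was 2241 scaled fragments, against 767 at the 4 Tssk genes with a centre and 738 over protein-coding genes. The lowest was Tsks, which encodes the substrate of TSSK1 and TSSK2 and is itself testis-specific, with 538 and 547 fragments over 28 in the input and a domain of 7200 bp. Its height was near that of Tssk2. Tsacc, the co-chaperone gene for TSSK6, had 2251 and 2240 over 24 in a domain of 7000 bp. Odf2, an outer dense fibre gene whose product TSSK4 phosphorylates, had 2848 and 2998 over 25 in a domain of 22300 bp.

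The other genes of the list, apart from Spag16, have wider roles in the body. Hsp90aa1 and Hsp90ab1, which encode the chaperone HSP90, had 2918 and 2155 scaled fragments. H2afx, the gene of the histone H2AX, whose phosphorylation in spermatids needs TSSK6, had 2241 in a domain of 13900 bp that contains the whole gene. Pdpk1, the gene of a kinase that activates TSSK3, had 2715, Creb1, the gene of a transcription factor that TSSK4 phosphorylates, 1703 and Spag16, a gene of the sperm axoneme, 1192. Widths in the list ran from 4000 to 22300 bp with a median of 7000 bp, against 7900 bp at the Tssk genes.

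The AMPK-related kinases, relatives of the TSSKs of which several are active in many tissues, had narrower domains by median. All 17 had a centre and a broad peak, with a median of 1107 scaled fragments and a median width of 4200 bp. At least 6 kb was reached by 6 of 17, and 0 of 17 lay wholly inside their broad peak, but these genes are long, with a median of 63800 bp. Sik3 was highest at 2632 scaled fragments and Brsk2 lowest at 363, in a domain of 8300 bp. Of the other germ cell kinases, 8 of 8 had a centre, with a median of 1165 scaled fragments and 7550 bp of width. Mak was highest at 1582 and Hipk4, which is active in spermatids, lowest at 260 (247 and 273 fragments over 15) in a domain of 7500 bp.

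Wide domains with centres of middling or low height were also found at other genes used late in the male germ line. They were not confined to such genes. Brsk2 above, and Ckm and the Sertoli cell gene Wt1 below, also had wide domains with centres under the protein-coding median. The testis isozymes and retrogenes, which include the intronless genes Pgk2, Pdha2, Aldoart1 and Aldoart2, had a centre in 7 of 7, a median of 477 scaled fragments and a median width of 8600 bp. A domain of at least 6 kb was found at 6 of 7, and 5 of 7 lay wholly inside theirs. Pdha2 was highest at 1435 and Gapdhs, the sperm form of a glycolytic enzyme, lowest at 213. The protamines and transition proteins, which replace histones on sperm DNA, had wider domains and lower centres. Tnp1 lay in a domain of 22800 bp, and Prm1, Prm2, Prm3 and Tnp2 shared 1 of 23900 bp. Their centres were low, with a median of 241 scaled fragments in the 4 genes with one. Prm2 and Prm3 have the same centre, of 319 scaled fragments, which is counted for each. Tnp2 had no centre within 1 kb, as at Tssk1 and Tssk4. Of the genes of other tissues reported here, Ckm had 694 scaled fragments in a domain of 7500 bp and Cd3e 50.4 in one of 2400 bp. Alb, Ins2, Krt14 and Myh6 had no centre. Whether any of these lists differs from the Tssk genes was not tested.

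**Figure D4:**
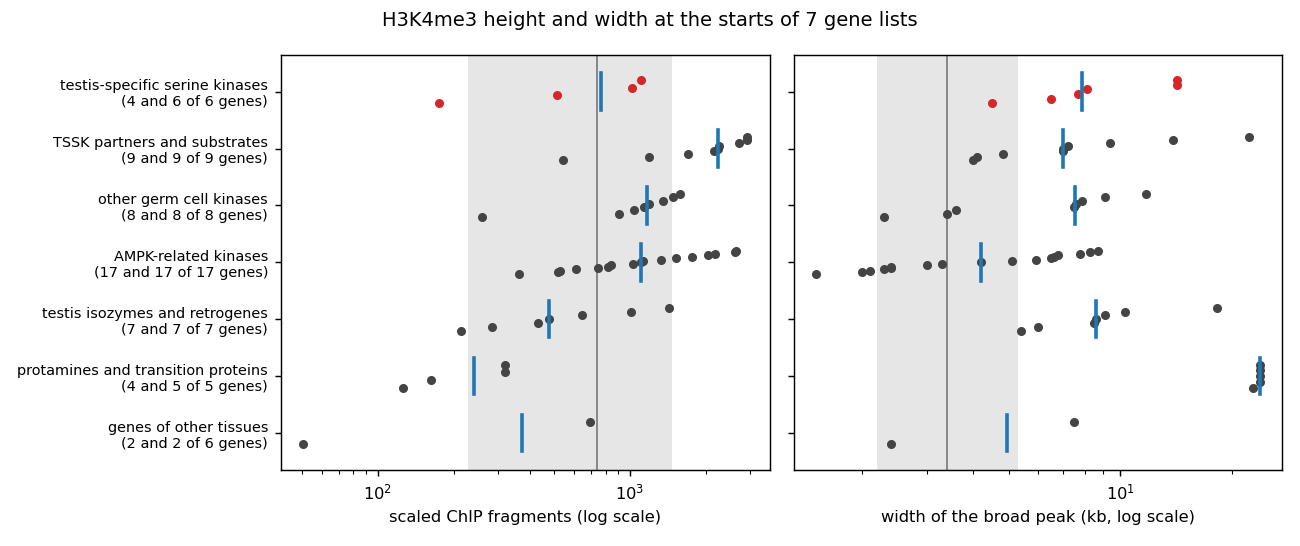
Scaled ChIP fragments at the strongest centre (left, log axis) and width of the broad peak (right, kb, log axis) for the genes of 7 lists, with blue bars at list medians and, in grey, the interquartile range and median of all protein-coding genes. The counts beside each list are genes with a narrow centre and genes with a broad peak. The Tssk genes (red) straddle the grey median in height and lie to its right in width.

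Centres were found at markers of germ cells, Sertoli cells and Leydig cells in these whole-testis libraries, though not at each marker. Germ cell genes were marked, with a centre in 4 of 5 (125.7 to 2052 scaled fragments, Acrv1 without one) and a broad peak in 5 of 5. Of the Sertoli cell genes Wt1 and Sox9 had 487 and 307, in domains of 12600 and 5000 bp, and Amh had neither a centre nor a broad peak. The Leydig cell genes Cyp17a1, Star and Hsd3b6 had low centres of 52.8, 37.7 and 10.5 (percentiles 9.39, 7.34 and 1.28). The broad peak at Hsd3b6 overlapped no PRDM9-independent region. Over 101978 narrow centres replicate 1 held 17621116 fragments and replicate 2 19094837, against 1250138 for the input.

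Weak PRDM9-dependent centres, those outside every PRDM9-independent region, lay near 2 of the domains. On either side of the Tssk6 domain, a centre 5461 bp upstream of the start had 28 and 34 fragments over 6 in the input, and one 5264 bp downstream had 29 and 48 over 4. A centre 5618 bp downstream of the Tssk2 start, in an intron of Ess2, had 7 and 17 over 2. Within 50 kb of the start there were 8 PRDM9-dependent centres of any height at Tssk6, 6 at Tssk1 and at Tssk2, 4 at Tssk4, 3 at Tssk3 and 1 at Tssk5. The median over protein-coding genes was 3, with an interquartile range of 2 to 5. The 9 centres inside the Tssk domains were all PRDM9-independent by this definition.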

How the data were processed

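H3K4me3 ChIP-seq libraries (2) and an input library (1) of whole mouse testis were analysed from the deposited peak files. The authors mapped read pairs (BWA, then Stampy; build mm10), discarded duplicates, improper pairs, pairs of mapping quality 0 and inserts over 10 kb, and computed fragment coverage with SAMtools and bedtools. They called peaks jointly on both replicates, broad ones from 100 bp bins and narrow ones from 1 bp bins with centres at least 1 kb apart. The deposited counts are fragments over the single base at each narrow centre, not normalized. The deposited enrichment is a ratio over local background, less 1, from their likelihood model. The deposited p-value is the authors' likelihood ratio test, with very small values written as 0, and was used here only as a threshold of 1e-10. Broad peaks and PRDM9-independent regions were deposited as positions.

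Here, the ChIP counts were scaled to equal totals over all narrow centres and averaged, and the strongest centre within 1 kb of any GENCODE vM21 transcript start was taken for each gene. Depth is known only at centres. PRDM9-dependent centres overlap no PRDM9-independent region. Motifs, CpG and shared runs were computed over the 250 bases before RefSeq starts (5 of 6 genes matched). The members and lists were chosen with earlier results of these data known, so levels, counts and medians are descriptions, and no test compares groups. Genes named are the 6 members, genes with a start in their broad peaks and nearest neighbours, the partners, the highest, lowest and unmarked genes of each list, the genes most like each member, and the cell type markers; Pgk2, Aldoart1 and Aldoart2 were named as examples of intronless genes, and Hgh1, Mroh1 and Ess2 for neighbouring centres, after their values were seen. Some genes of the list of other tissues are not reported here, for reasons other than their values, so no share of that list is given in the text. Alternatives were other distances, thresholds, starts, peak choices and scalings, and leaving out each replicate. Peak assignment, overlap and scaling were tested on simulated data. Scripts used scipy 1.17.1, pandas 2.3.3 and numpy 2.4.6 in Python 3.11.15, with matplotlib 3.10.9 for plots.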

Additional observations from a re-analysis of the deposited data

How the results depend on the processing

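The number of Tssk genes with a narrow centre was 4 and became 3 within 500 bp, where Tssk3 was lost, and 5 within 2 kb, where Tssk1 was gained. It stayed at 4 with p under 1e-10, with gene starts alone and without either replicate. The broad peak count stayed at 6 under each of its 3 alternatives. The median coverage of 767 fell to 513 within 500 bp and within 2 kb, as a gene was lost or gained, ran from 723.5 to 810.0 when either replicate was left out, and was 1065 for the strongest centre in each broad peak, an alternative chosen after seeing the data that takes the Dgcr2 centre for Tssk1 and Tssk2. The median percentile of 50.5 became 54.5 with the nearest centre, 39.4 within 500 bp and 42.3 within 2 kb. The ratio of highest to lowest, 6.36, was 5.90 with the nearest centre and within 500 bp, and 6.35 to 6.49 without either replicate. The median width was 7700 bp when the shared domain of Tssk1 and Tssk2 was counted once, also chosen after seeing the data. No paired analysis was possible because the 2 replicates are of 1 group and the input carries no replicate number. Peaks were called jointly, so a width has no replicate error.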
